A study of Mus musculus with 9 samples.

Results

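The genes described here are 36 mouse genes of cholesterol and fatty acid synthesis, given as a list of gene symbols and matched to the array by its probe annotation. Of these, 34 were measured, each by 1 transcript cluster, the set of array probes that stands for the transcripts of a gene. Srebf1 and Scd2 were not analysed here. The measured members comprise 15 enzymes of the sterol branch, 3 regulators and 16 enzymes of the fatty acid branch, out of 22206 transcript clusters tested. The tissue is the submandibular salivary gland of 12-week-old C57BL6/J females, with 3 biological replicates in each of 3 groups: mock surgery sampled on day 3, partial gland resection sampled on day 3, and partial gland resection sampled on day 14. All groups had surgery. No mock group of day 14 was analysed here, so resection and time since surgery cannot be told apart on day 14.

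Cells make cholesterol from acetyl-CoA through mevalonate, isoprenoid units, squalene and lanosterol. When sterols are scarce in the endoplasmic reticulum, the escort protein Scap carries the membrane-bound transcription factors Srebf1 and Srebf2 to the Golgi, where proteolysis frees them to enter the nucleus and raise transcription of these enzymes, and when sterols are plentiful Insig1 holds Scap back. Fatty acids are built from the same precursor by Acly, acetyl-CoA carboxylase and Fasn and are then lengthened by the Elovl elongases and desaturated by the Scd and Fads enzymes.

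Values are log2 expression levels on the scale the authors deposited, which is not a calibrated fold scale. Array medians were 5.09 to 5.24, and across transcript clusters the correlation between replicates was 0.985 to 0.99. Within groups, however, the sterol branch set 2 arrays apart. Mock replicate 1 was the highest of the mock arrays for 14 of 15 sterol branch enzymes, against 32.7% of all transcript clusters. Day 3 resected replicate 2 was the highest of its group for 15 of 15, against 32.3% of all transcript clusters. The median excess of an enzyme over the mean of the other arrays of the group was 1.05 log2 in mock replicate 1 (0.03 to 2.32) and 1.49 log2 in day 3 resected replicate 2 (0.64 to 2.5). For the 16 fatty acid branch enzymes the same medians were 0.11 and 0.3 log2. What set these arrays apart was not tested. Fits without each of them, or without both, are given beside the counts and medians of the sterol branch, and these were added after seeing the data.

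**Figure D1:**
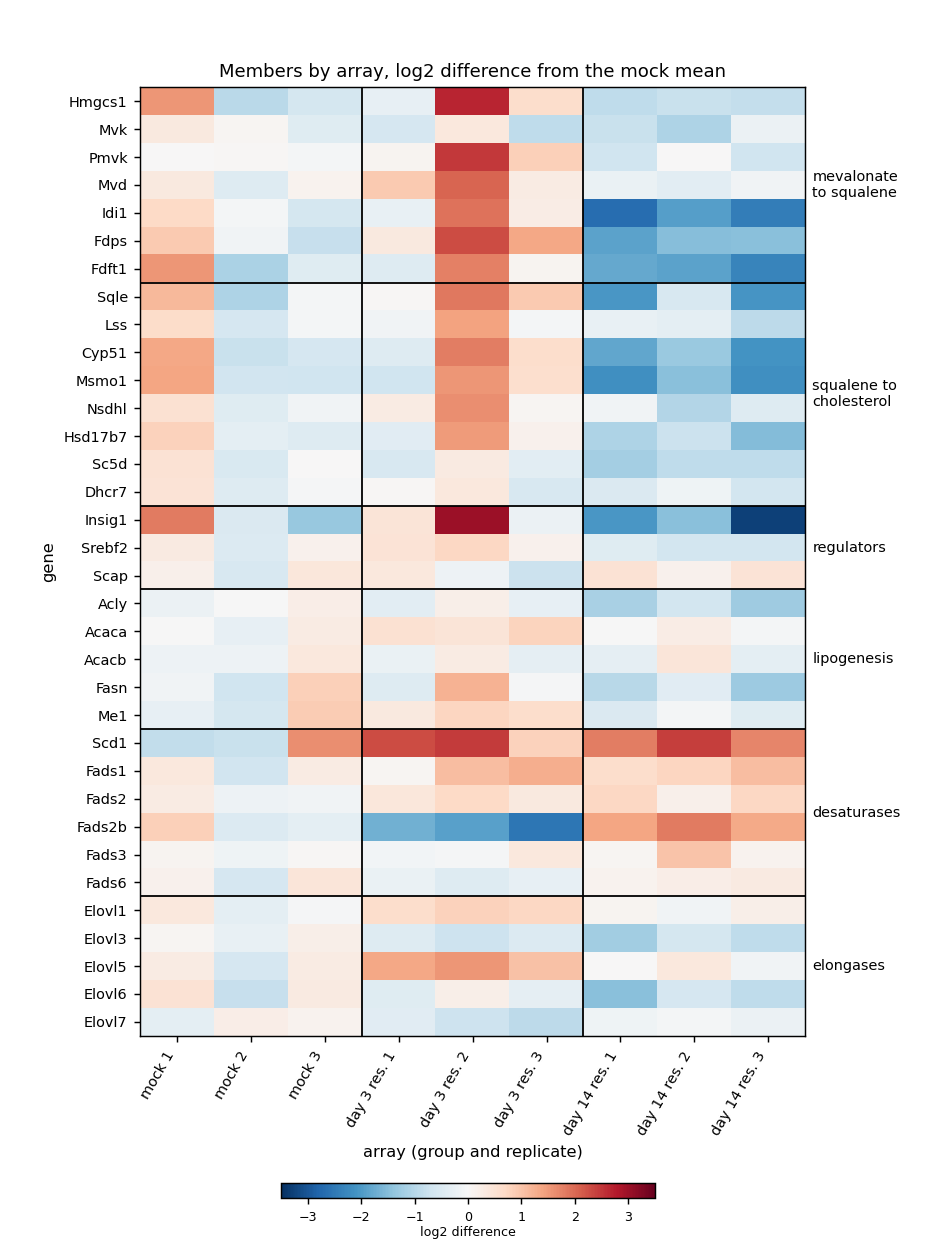
Each cell is the log2 level of a gene (vertical axis, grouped by role) on an array (horizontal axis, 3 arrays per group) minus that gene's mock mean. The sterol branch is highest in day 3 resected replicate 2, raised in mock replicate 1, and low on all 3 day 14 arrays.

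The sterol branch was lower on day 14 than on day 3 after resection. Its mean level was 7.81, 8.08 and 7.76 log2 on the day 14 arrays, against 8.87, 10.61 and 9.27 on the day 3 resected arrays. Mock arrays had 9.83, 8.52 and 8.69, so each day 14 array lay below each of the 6 arrays sampled on day 3. The mean of the fatty acid branch showed no such separation, at 8.99, 9.36 and 9.05 on the day 14 arrays, 9.13, 9.41 and 9.1 on day 3 after resection and 9.11, 8.65 and 9.39 on the mock arrays. That mean joins enzymes that went different ways. Means of the 6 desaturases were 9.97 to 10.25 on day 14, above every array sampled on day 3 (8.71 to 9.51). Most of that rise from day 3 resected glands was in Fads2b, with a day 14 minus day 3 difference of 3.54 log2. The other desaturases differed by 0 (Fads1) to 0.55 (Fads6), so the list mean does not describe them as a group. On day 14 the 5 lipogenic enzymes (7.9 to 8.48) lay below day 3 resected glands (8.53 to 9.14). So did the 5 elongases (8.83 to 9.16, against 9.38 to 9.59), and both overlapped mock.

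**Figure D2:**
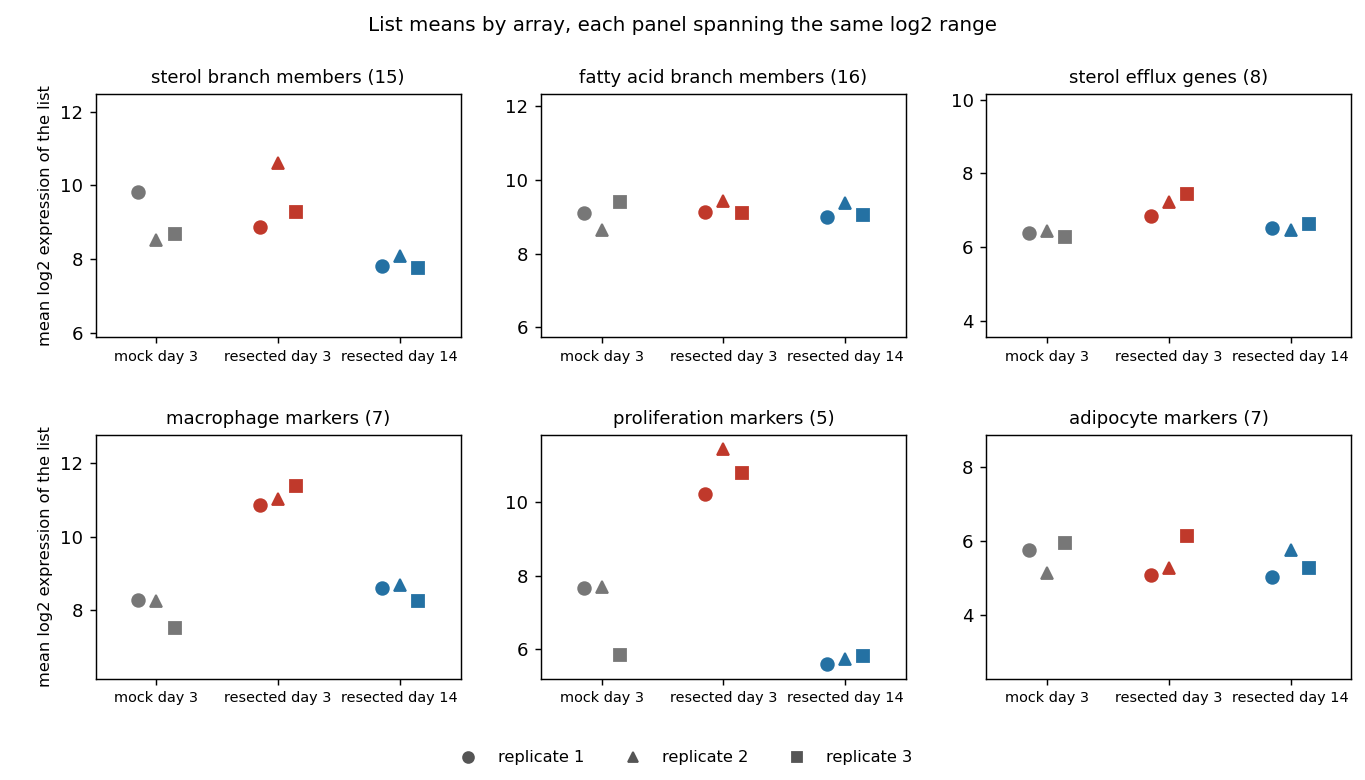
Mean log2 expression of 6 gene lists (vertical axis, spanning the same number of log2 units in each panel) by group (horizontal axis), with 1 point per array and the marker shape giving the replicate. The sterol branch is lowest on day 14 (7.76 to 8.08), the fatty acid branch overlaps between all groups, and the sterol efflux, macrophage and proliferation lists are high on day 3 after resection.

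Tested member by member against day 3 after resection, 9 members fell and 1 rose by day 14, at an adjusted p under 0.05 in limma. In this comparison 6.28% of all transcript clusters passed, 4.88% lower and 1.4% higher. The 9 that fell were the sterol branch enzymes Idi1, Fdps, Fdft1, Sqle, Cyp51 and Msmo1, the regulators Insig1 and Srebf2, and the elongase Elovl5. Fads2b, named as a relative of the desaturase gene Fads2, rose. All 15 sterol branch differences were below 0, with a median of -1.6 log2 against 0.06 for all transcript clusters, and the median of the fatty acid branch was -0.18. Without day 3 resected replicate 2 the sterol branch median was -0.99, 14 of 15 differences were below 0 (Mvk was at 0.07) and 2 sterol enzymes passed. Without that array and mock replicate 1 together, 6 passed. The median of -0.99 could not change, since mock arrays enter this comparison only through the estimate of spread. Mock replicate 1 was itself picked for its sterol branch values.

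Between day 3 resected and mock glands, 1 member (Elovl5) rose and 1 (Fads2b) fell. Of all transcript clusters 6.27% passed in this comparison, 4.92% higher and 1.36% lower, so the members' share was near the background. None of the 15 sterol branch enzymes passed, with differences from -0.38 to 1.32 log2 and a median of 0.63. Without day 3 resected replicate 2 this median was -0.01, with 8 of 15 differences below 0. It was 1.14 without mock replicate 1, with 14 above 0, and 0.48 without both arrays, with 12 above 0, so its sign depended on which arrays entered. Over all 34 members the median was 0.47 log2, and 0.03 without day 3 resected replicate 2. Without that array only Fads2b passed, and without mock replicate 1, mock replicate 3 or day 3 resected replicate 1, 4 members passed, with Fdps and Elovl1, Me1 and Scd1, or Pmvk and Fdps added. Without day 3 resected replicate 3, Mvd was added.

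Between day 14 resected and mock glands, 0 members passed the adjusted threshold in limma, as did 0.153% of all transcript clusters. At an unadjusted p under 0.05, 13 members were lower and 4 higher, against 4.58% and 3.6% of all transcript clusters. Of the 13, 8 were sterol branch enzymes and 2 were the regulators Insig1 and Srebf2. All 15 sterol branch differences from mock were below 0, from -2.35 to -0.24 log2, with a median of -0.98 against 0 for all transcript clusters. Without mock replicate 1 all 15 were still below 0, with a median of -0.72, and 5 were lower at an unadjusted p under 0.05. Hmgcs1 was then at -0.05 and Insig1 at -1.35. Leaving out an array let 1 member pass in 3 cases, Fads2b without mock replicate 1, Scd1 without mock replicate 3 and Idi1 without day 3 resected replicate 2. The comparisons share groups of arrays (mock, day 3 resected or day 14 resected), so their values are not independent of each other. RNA came from whole tissue, so fewer cells of a type and less RNA per cell cannot be told apart.

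**Figure D3:**
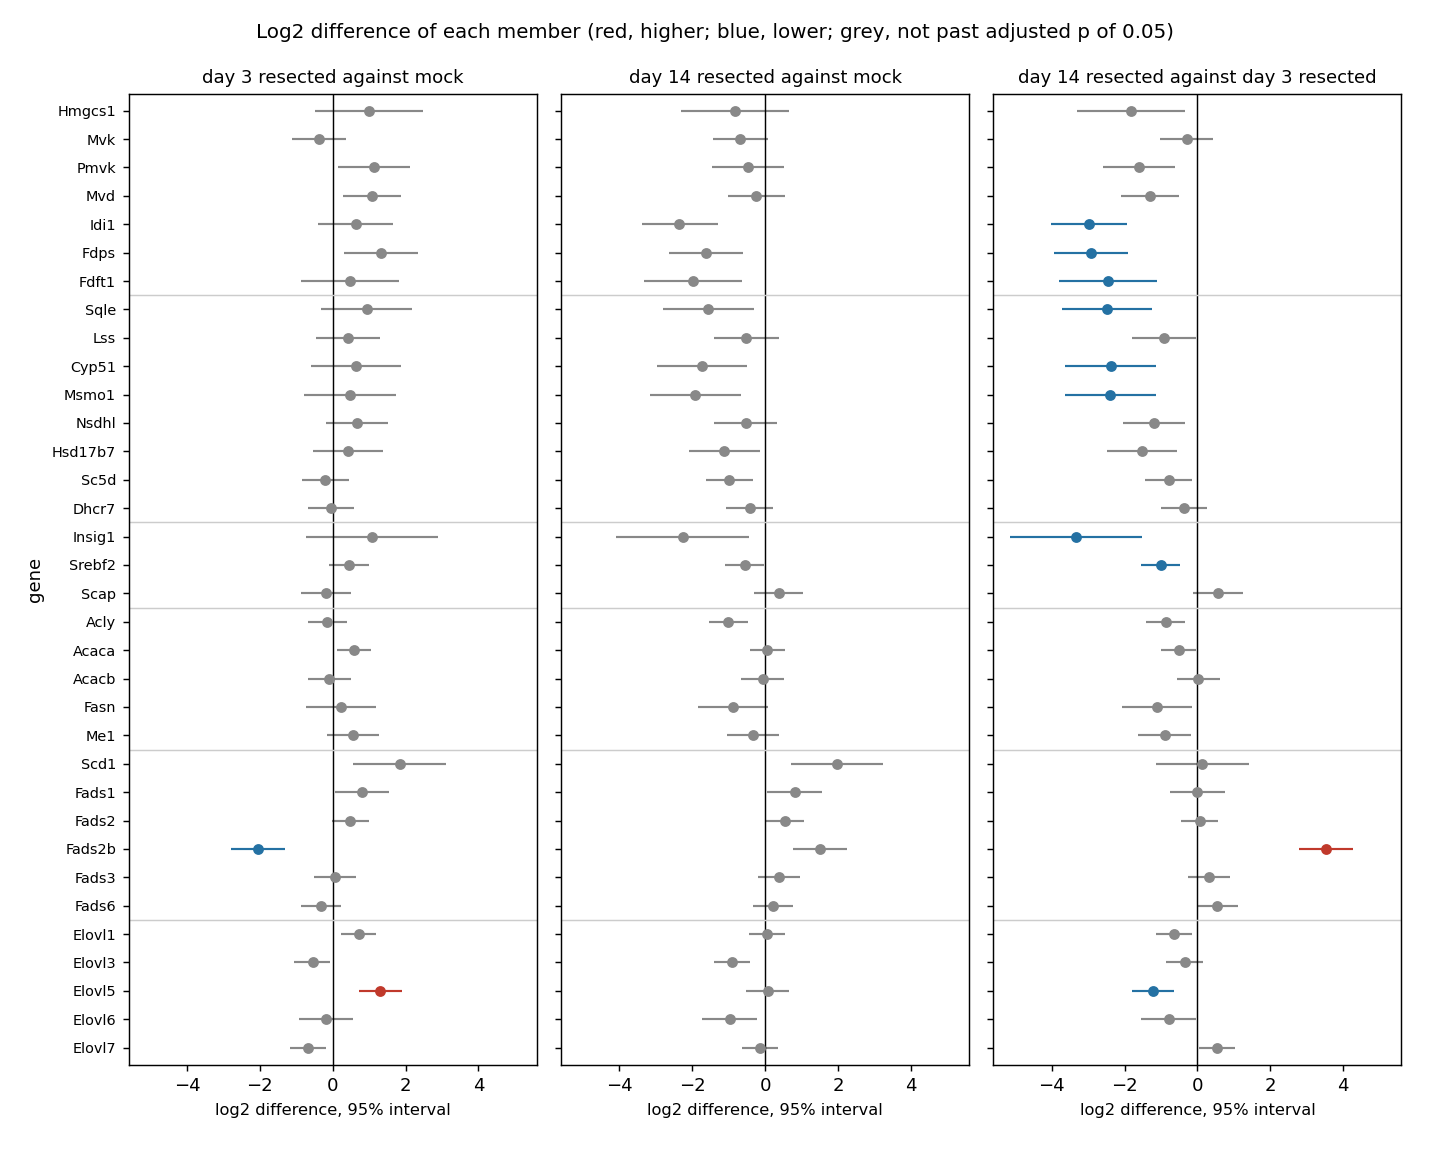
Log2 difference of each member with its 95% interval from limma (horizontal axis) for the 3 comparisons, genes in the order of their roles (vertical axis). Blue points to the left of 0 gather in the sterol branch for day 14 against day 3 after resection, where 9 members fell and Fads2b rose by 3.54.

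The promoters of the members were searched for the letters of an NF-Y and a sterol element, since several members moved together. In RefSeq's promoter table for build GRCm38.p6, which gives 250 bases before and 50 bases after each start, 28 of the 34 measured members have an entry, and Fdps, Fdft1 and Sqle have none. The letters CCAAT, the element bound by the factor NF-Y, were present on either strand in 12 of the 12 sterol branch enzymes with an entry and in 22 of the 28 members, against 41.1% of 27025 genes and 37.4% of 32851 promoters. The letters TCACNCCA, a core of the sterol regulatory element that SREBP factors bind, were present on either strand in Hmgcs1, Msmo1 and Srebf2, 3 of the 28, against 4.97% of genes and 4.36% of promoters. The longer form TCACNCCAC, which contains the shorter, was present in Hmgcs1 among the members and in 1.24% of promoters. Such a match describes letters in this window and was not tested as a binding site.

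The promoters of 5 members are printed 5′ to 3′ on the gene's strand, with TCACNCCA, TCACNCCAC and CCAAT on either strand in capitals. Hmgcs1 (chr13:119690101-119690400, plus strand), Msmo1 (chr8:64733529-64733828, minus strand) and Srebf2 (chr15:82147019-82147318, plus strand) are shown because they hold both kinds of match. Idi1 (chr13:8885356-8885655, plus strand) is shown as a sterol branch enzyme that passed without any 1 of the 9 arrays, and Fads2b (chr2:85518886-85519185, minus strand) as the member that moved the opposite way. In Hmgcs1, Srebf2 and Msmo1 the sterol element match begins 137, 162 and 177 bases before the start. Idi1 has CCAAT at 14 and 45 bases before the start and no sterol element match in this window.
Hmgcs1: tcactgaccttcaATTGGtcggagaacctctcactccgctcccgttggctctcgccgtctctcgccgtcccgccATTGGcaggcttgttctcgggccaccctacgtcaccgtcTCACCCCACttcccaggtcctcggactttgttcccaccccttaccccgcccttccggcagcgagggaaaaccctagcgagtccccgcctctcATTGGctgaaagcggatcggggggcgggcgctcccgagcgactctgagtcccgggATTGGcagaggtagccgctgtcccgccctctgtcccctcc
Srebf2: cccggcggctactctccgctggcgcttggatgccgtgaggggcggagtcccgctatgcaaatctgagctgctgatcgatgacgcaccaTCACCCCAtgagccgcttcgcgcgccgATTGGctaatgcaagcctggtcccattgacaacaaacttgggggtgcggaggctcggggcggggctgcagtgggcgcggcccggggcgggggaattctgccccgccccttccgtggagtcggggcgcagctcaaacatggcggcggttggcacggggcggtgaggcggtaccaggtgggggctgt
Msmo1: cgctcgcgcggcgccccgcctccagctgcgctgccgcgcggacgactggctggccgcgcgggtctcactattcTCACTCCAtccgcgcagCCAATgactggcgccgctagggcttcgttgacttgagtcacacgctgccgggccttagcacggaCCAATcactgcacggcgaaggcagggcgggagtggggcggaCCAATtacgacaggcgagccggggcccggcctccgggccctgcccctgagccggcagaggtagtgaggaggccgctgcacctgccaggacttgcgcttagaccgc
Idi1: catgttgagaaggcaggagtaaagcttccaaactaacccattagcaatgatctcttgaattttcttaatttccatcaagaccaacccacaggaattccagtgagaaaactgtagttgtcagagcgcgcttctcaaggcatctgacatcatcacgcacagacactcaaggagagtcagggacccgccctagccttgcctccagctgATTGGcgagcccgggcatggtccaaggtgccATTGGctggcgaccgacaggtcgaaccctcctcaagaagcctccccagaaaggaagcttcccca
Fads2b: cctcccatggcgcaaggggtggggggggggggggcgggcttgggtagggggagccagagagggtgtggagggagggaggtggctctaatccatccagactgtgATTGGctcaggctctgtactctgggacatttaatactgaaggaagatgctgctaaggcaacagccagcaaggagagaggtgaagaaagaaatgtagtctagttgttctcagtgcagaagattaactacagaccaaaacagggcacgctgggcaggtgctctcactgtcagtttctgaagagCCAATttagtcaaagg

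Among the enzymes that lead from acetyl-CoA units to squalene, Idi1, Fdps and Fdft1 fell between day 3 and day 14 after resection. Idi1, the isomerase of the activated isoprene unit, was at 9.31, 11.49 and 9.83 log2 on the day 3 resected arrays, at 6.91, 7.64 and 7.16 on the day 14 arrays and at 10.28, 9.5 and 8.96 on the mock arrays. No day 14 value reached the lowest value of the other groups. The difference from day 3 was -2.97 ± 0.48 log2 (SE, n = 3 arrays per group; limma adjusted p = 0.00187). Against mock it was -2.35 ± 0.48 (limma adjusted p = 0.115), which did not pass.

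Fdps, which joins isoprene units into farnesyl diphosphate, was at 8.4, 10.36 and 9.41 log2 on the day 3 resected arrays, at 6.21, 6.57 and 6.6 on the day 14 arrays and at 8.99, 7.95 and 7.27 on the mock arrays. Again every day 14 array was below every array of the other groups. Relative to day 3, the difference was -2.93 ± 0.47 (limma adjusted p = 0.00172), and against mock -1.61 ± 0.47 (adjusted p = 0.325). Day 3 resected glands differed from mock by 1.32 ± 0.47 (adjusted p = 0.136).

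Fdft1, squalene synthase, which makes the committed step towards sterols, was at 10.62, 12.84 and 11.16 log2 on the day 3 resected arrays, at 9.28, 9.2 and 8.77 on the day 14 arrays and at 12.61, 9.96 and 10.65 on the mock arrays. The day 14 arrays lay close together, while the other groups each held an array far above its companions. Day 14 minus day 3 was -2.45 ± 0.62 (adjusted p = 0.0327), and against mock -1.99 ± 0.62 (adjusted p = 0.392).

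Hmgcs1, the cytosolic HMG-CoA synthase at the head of the pathway, did not pass in any comparison. It was at 11.06, 14.01 and 11.95 log2 on the day 3 resected arrays, 10.46, 10.57 and 10.52 on the day 14 arrays and 12.89, 10.4 and 10.74 on the mock arrays. Its day 3 resected values spread with an SD of 1.51 and its day 14 values with an SD of 0.06. The day 14 minus day 3 difference was -1.82 ± 0.68 (adjusted p = 0.16), and -0.99 without day 3 resected replicate 2 (adjusted p = 0.467). The kinases Mvk and Pmvk and the decarboxylase Mvd, which convert mevalonate to the isoprene unit, did not pass either. For Mvd and Pmvk the day 14 minus day 3 differences were -1.31 ± 0.37 (adjusted p = 0.0533) and -1.6 ± 0.46 (adjusted p = 0.0588), and for Mvk -0.3 ± 0.34.

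From squalene to cholesterol, Sqle, Cyp51 and Msmo1 fell between day 3 and day 14 after resection, and the other 5 enzymes did not pass. Sqle, squalene epoxidase, a rate-limiting enzyme of the pathway, was at 7.62, 9.44 and 8.49 log2 on the day 3 resected arrays, 5.54, 7.03 and 5.52 on the day 14 arrays and 8.72, 6.51 and 7.53 on the mock arrays. Day 14 replicate 2 lay above mock replicate 2, so day 14 and mock overlapped, whereas day 14 and day 3 resected did not. The difference from day 3 was -2.49 ± 0.57 (adjusted p = 0.0197), and from mock -1.56 ± 0.57 (adjusted p = 0.515).

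Cyp51, the lanosterol demethylase, was at 9.49, 11.72 and 10.54 log2 on the day 3 resected arrays, 8.11, 8.64 and 7.85 on the day 14 arrays and 11.3, 9.16 and 9.34 on the mock arrays. Every day 14 array was below every other array. Relative to day 3, the difference was -2.38 ± 0.57 (adjusted p = 0.0256), and from mock -1.73 ± 0.57 (adjusted p = 0.442).

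Msmo1, the methylsterol monooxygenase that acts after Cyp51, was at 6.88, 9.13 and 8.18 log2 on the day 3 resected arrays, 5.44, 6.12 and 5.44 on the day 14 arrays and 8.97, 6.9 and 6.87 on the mock arrays. The order of the groups was that of Cyp51, with the same high arrays in the mock and day 3 resected groups. Day 14 minus day 3 was -2.39 ± 0.58 (adjusted p = 0.0266), and from mock -1.91 ± 0.58 (adjusted p = 0.373).

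The remaining enzymes of this stretch, lanosterol synthase Lss, the sterol dehydrogenase Nsdhl, the ketosteroid reductase Hsd17b7, lathosterol desaturase Sc5d and dehydrocholesterol reductase Dhcr7, had day 14 minus day 3 differences between -1.53 and -0.38 log2. Hsd17b7 came nearest to the threshold (-1.53 ± 0.44, adjusted p = 0.0638). Sc5d and Dhcr7 were the sterol branch enzymes whose highest array was mock replicate 1 (14.68 and 9.81) and not day 3 resected replicate 2 (14.48 and 9.71). Dhcr7, the last step, had an interval of -1.01 to 0.26 log2 for day 14 against day 3.

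Of the regulators, Insig1 and Srebf2 fell between day 3 and day 14 and Scap did not pass. Insig1, the sterol sensor's retention protein and itself a target of SREBP, was at 15.36, 17.89 and 14.7 log2 on the day 3 resected arrays, 12.86, 13.44 and 11.63 on the day 14 arrays and 16.73, 14.39 and 13.59 on the mock arrays. All day 14 values were below all others. The difference from day 3 was -3.34 ± 0.84 (adjusted p = 0.032), and from mock -2.26 ± 0.84 (adjusted p = 0.518). With robust variances in limma the adjusted p for day 14 against day 3 was 0.112, so the call was lost.

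Srebf2, the SREBP that mainly drives cholesterol genes, was at 12.37, 12.6 and 12.03 log2 on the day 3 resected arrays, 11.47, 11.24 and 11.25 on the day 14 arrays and 12.21, 11.42 and 12.03 on the mock arrays. Day 14 replicate 1 lay just above mock replicate 2. Relative to day 3, the difference was -1.01 ± 0.25 (adjusted p = 0.0286), and from mock -0.56 ± 0.25 (adjusted p = 0.59). Scap, the escort protein, was at 10.69, 10.13 and 9.55 on day 3 after resection, which overlapped the day 14 values of 10.81, 10.47 and 10.78 (0.56 ± 0.31, adjusted p = 0.371).

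**Figure D4:**
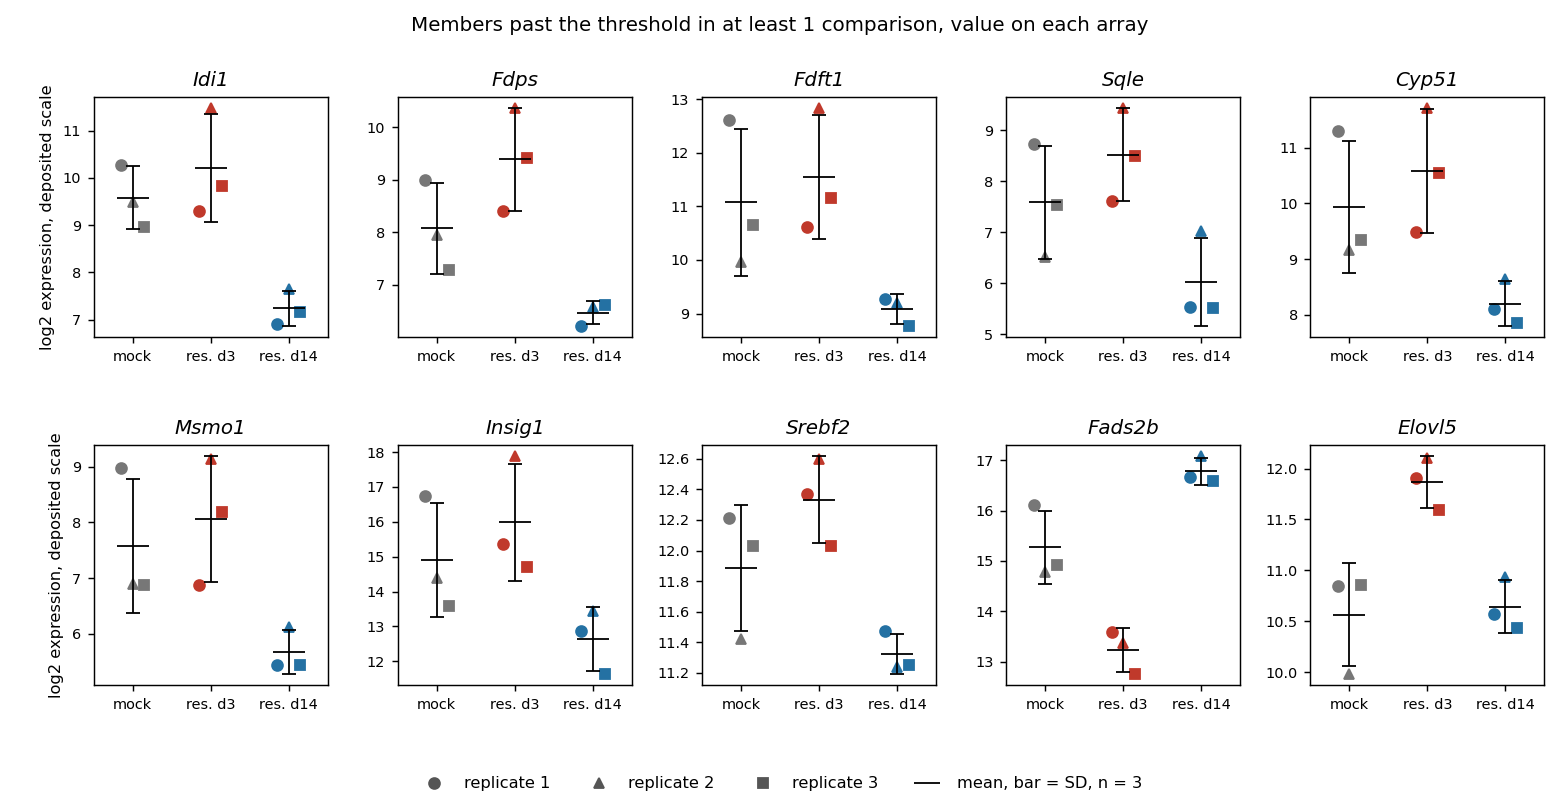
Log2 level (vertical axis, its own range in each panel, not starting at 0) on each array by group (horizontal axis) for the 10 members past the threshold in at least 1 comparison, with the group mean and SD (n = 3). For the 8 sterol genes the day 14 arrays sit below the day 3 resected arrays, with day 3 resected replicate 2 (triangle) highest in its group, while Fads2b is lowest on day 3 after resection.

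How many of these falls passed depended on which arrays entered. Without day 3 resected replicate 2, 3 members passed for day 14 against day 3 after resection in place of 10, namely Idi1 (-2.33 log2, adjusted p = 0.00341), Fdps (-2.44, adjusted p = 0.00773) and Fads2b (3.61, adjusted p = 0.000363). The other 7 kept their direction, with Fdft1 at -1.8, Sqle at -2.03, Cyp51 at -1.81, Msmo1 at -1.86, Insig1 at -2.38, Srebf2 at -0.88 and Elovl5 at -1.11, and adjusted p values from 0.0764 to 0.132. The same 3 members passed without day 14 resected replicate 1 and without day 14 resected replicate 3. Without day 3 resected replicate 3, 7 members passed, and Fdft1, Sqle, Cyp51 and Msmo1 were not among them. Without mock replicate 1, which enters this comparison only through the estimate of spread, 11 passed. The member counts above are at the adjusted threshold. At an unadjusted limma p under 0.05 the background fell too in the fits with 3 or 7 members. By that measure 10.2% of all transcript clusters were lower and 8.68% higher with all 9 arrays. Dropping replicate 2 of the day 3 resected group gave 8.98% and 6.87%, and its replicate 3 gave 8.52% and 6.12%. Dropping replicate 1 of the day 14 group gave 9.11% and 7.62%, and its replicate 3 gave 9.25% and 7.56%. At the same unadjusted p, 13 of 15 sterol branch enzymes were lower with all arrays. Leaving out replicate 2 or replicate 3 of the day 3 resected group gave 9 and 13. Leaving out replicate 1 or replicate 3 of the day 14 group gave 10 and 12. Their median difference was -1.6 log2 with all arrays. In these fits, in the same order, it was -0.99, -1.74, -1.55 and -1.48. How far fewer arrays alone lowered the counts was not tested.

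The low end of the scale limits the size of several of these differences. The 95th percentile of 5222 negative control rows was 8.21 to 8.52 log2 over the arrays. All 3 day 14 values of Idi1, Fdps, Sqle and Msmo1 were below it, so how far these fell is bounded by background and their falls cannot be ranked. Msmo1 was below it on 7 of 9 arrays and Fdps and Sqle on 6 of 9, so part of their mock and day 3 resected values lay there too. Cyp51 was below it on day 14 replicates 1 and 3 (8.11 and 7.85). Among members that did not pass, Pmvk was below it on 8 of 9 arrays, Hsd17b7 on 7, Elovl6 on 6 and Fasn on 5. Of the members, 9 (Mvk, Mvd, Acaca, Acacb, Me1, Fads1, Fads3, Fads6 and Elovl3) were below it on all 9 arrays. No member reached the highest value of the arrays, 19.93.

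The lipogenic enzymes did not pass in any comparison. Acly, ATP-citrate lyase, which supplies cytosolic acetyl-CoA to both branches, was at 13.67, 14.26 and 13.77 log2 on the day 3 resected arrays, 12.9, 13.4 and 12.81 on the day 14 arrays and 13.83, 14.03 and 14.28 on the mock arrays. Its day 14 values were below all others. The difference was -0.87 ± 0.25 from day 3 (adjusted p = 0.0567) and -1.01 ± 0.25 from mock (adjusted p = 0.213). Without day 14 resected replicate 2 the former was -1.05 (adjusted p = 0.0418) and passed.

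Fasn, fatty acid synthase, was at 8.4, 10.05 and 8.79 log2 on the day 3 resected arrays, 7.87, 8.45 and 7.58 on the day 14 arrays and 8.71, 8.14 and 9.67 on the mock arrays, with overlap between all groups. Its day 14 minus day 3 difference was -1.11 ± 0.44 (adjusted p = 0.188). Its highest mock array was replicate 3, not replicate 1 as for most sterol enzymes. Me1, the malic enzyme that supplies NADPH, had a day 14 minus day 3 difference of -0.9 ± 0.33 (adjusted p = 0.152), which passed without mock replicate 3 (adjusted p = 0.0313).

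The acetyl-CoA carboxylases, which make malonyl-CoA, had small differences. Acaca, the cytosolic form, differed by 0.59 ± 0.22 between day 3 resected and mock (adjusted p = 0.16) and by -0.52 ± 0.22 between day 14 and day 3 (adjusted p = 0.214). Acacb, the mitochondria-associated form, differed by -0.09 ± 0.27 and 0.02 ± 0.27, with an interval of -0.57 to 0.61 log2 for day 14 against day 3.

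Among the desaturases, Fads2b fell on day 3 after resection and stood high on day 14. It was at 16.11, 14.79 and 14.92 log2 on the mock arrays, 13.59, 13.37 and 12.75 on day 3 after resection and 16.66, 17.09 and 16.59 on the day 14 arrays, and the 3 groups did not overlap. The day 3 difference from mock was -2.04 ± 0.34 (adjusted p = 0.00282), and day 14 exceeded day 3 by 3.54 ± 0.34 (adjusted p = 4.79e-05). Day 14 against mock was 1.5 ± 0.34 (adjusted p = 0.16), and without mock replicate 1 it was 1.92 (adjusted p = 0.03). Fads2b passed in both of the other comparisons without any 1 of the 9 arrays.

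Scd1, the stearoyl-CoA desaturase that makes monounsaturated fatty acids, was at 14.26, 14.33 and 16.75 log2 on the mock arrays, 17.39, 17.56 and 15.91 on day 3 after resection and 16.9, 17.53 and 16.83 on the day 14 arrays. Mock replicate 3 stood far above the other mock arrays and at the level of the resected groups. The difference from mock was 1.84 ± 0.59 on day 3 (adjusted p = 0.0964) and 1.98 ± 0.59 on day 14 (adjusted p = 0.356), and neither passed. Without mock replicate 3 they were 2.66 (adjusted p = 0.00369) and 2.79 (adjusted p = 0.0184).

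Fads2, a front-end desaturase of polyunsaturated fatty acid synthesis, was at 9.09 to 9.58 log2 on the mock arrays, 9.62 to 9.99 on day 3 after resection and 9.46 to 10.01 on the day 14 arrays. Its differences from mock were 0.48 ± 0.24 (adjusted p = 0.302) and 0.55 ± 0.24 (adjusted p = 0.579). Fads1, which acts later in the same route, and Fads3 and Fads6 stayed between 3.39 and 6.84 log2 on all arrays and did not pass.

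Among the elongases, Elovl5, which lengthens polyunsaturated fatty acids, rose on day 3 after resection and fell again by day 14. It was at 10.85, 9.98 and 10.86 log2 on the mock arrays, 11.91, 12.1 and 11.59 on day 3 after resection and 10.57, 10.93 and 10.43 on the day 14 arrays. The day 3 resected values were above all others, and the mock and day 14 values overlapped. The difference was 1.3 ± 0.27 from mock on day 3 (adjusted p = 0.0111) and -1.22 ± 0.27 from day 3 to day 14 (adjusted p = 0.0163). Without day 3 resected replicate 2 the former was 1.19 (adjusted p = 0.0544) and no longer passed.

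The other elongases did not pass. Elovl1, which lengthens very long chain fatty acids, was at 12.36 to 13.09 log2 on the mock arrays, 13.32 to 13.51 on day 3 after resection and 12.59 to 12.92 on the day 14 arrays (day 3 against mock 0.71 ± 0.23, adjusted p = 0.0929). Elovl6, which lengthens the product of fatty acid synthase, differed by -0.79 ± 0.35 between day 14 and day 3 (adjusted p = 0.238) and by -0.97 ± 0.35 between day 14 and mock (adjusted p = 0.49). Elovl7 differed from mock by -0.67 ± 0.23 on day 3 (adjusted p = 0.115). Elovl3 lay between 1.9 and 3.32 log2, below the 95th percentile of the negative controls on every array.

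Other lipid genes are given from lists drawn up by pathway. Their counts, and those of the cell type markers below, can be set beside the shares of all transcript clusters past the adjusted threshold in limma. On day 3 against mock 4.92% were higher and 1.36% lower. From day 3 to day 14, 1.4% were higher and 4.88% lower. Of 8 measured genes of sterol efflux, 3 rose on day 3 after resection and 0 fell, and the same 3 fell from day 3 to day 14. They were Abca1, the pump that exports cholesterol to lipoproteins (2.66 ± 0.32 on day 3, adjusted p = 0.000285), Apoe, a lipoprotein that carries it (2.38 ± 0.37, adjusted p = 0.00153), and the pump Abcg1 (1.36 ± 0.24, adjusted p = 0.00363). Abca1 was at 6.96 to 7.45 log2 on the mock arrays, 9.11 to 10.56 on day 3 after resection and 7.93 to 8.42 on the day 14 arrays. Here day 3 resected replicate 2 (9.97) was not the highest of its group.

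Of 10 measured genes of sterol uptake, storage and sensing, 3 rose on day 3 and 0 fell. Lipa, the lysosomal acid lipase that frees cholesterol from its esters, rose by 3.02 ± 0.37 (adjusted p = 0.000289), the endocytic receptor Lrp1 by 1.44 ± 0.32 (adjusted p = 0.0144) and the lysosomal cholesterol exporter Npc1 by 0.96 ± 0.22 (adjusted p = 0.019). From day 3 to day 14, 3 fell and 1 rose, and the lowest difference on the list was -3.04 log2. The riser was Mylip (1.19 ± 0.29, adjusted p = 0.0266), the ligase that degrades the LDL receptor. Of 7 measured further genes of sterol synthesis, only Lbr, a sterol reductase of the nuclear envelope, passed, with 1.48 ± 0.29 on day 3 (adjusted p = 0.0072) and -1.79 ± 0.29 from day 3 to day 14 (adjusted p = 0.00181).

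In fatty acid metabolism outside the members, few genes passed. Plin2, the coat protein of lipid droplets, was the 1 of 10 genes of triglyceride synthesis and storage that rose on day 3 (3.3 ± 0.42, adjusted p = 0.000376), and it fell by day 14 (-3.49 ± 0.42, adjusted p = 0.000173). Of 14 further genes of fatty acid synthesis, Hacd1 rose on day 3 (1.18 ± 0.24, adjusted p = 0.0103) and Acsl4 fell from day 3 to day 14 (-0.97 ± 0.26, adjusted p = 0.0424). All 11 measured genes of fatty acid oxidation had lower means on day 3 after resection than in mock glands, with a median of -0.49 log2 against -0.06 for all transcript clusters, but only Hadhb, a subunit of the mitochondrial trifunctional protein, passed (-0.89 ± 0.23, adjusted p = 0.0368). Against mock on day 14, 0 genes of these lists passed in limma.

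Markers of cell types moved between the same groups. Macrophage markers (7 of 7 higher on day 3 after resection) had list means of 7.53 to 8.28 log2 in mock, 10.85 to 11.38 in day 3 resected and 8.25 to 8.69 in day 14 resected glands, highest on day 3 after resection as were Abca1, Apoe, Lipa and Plin2. Proliferation markers (5 of 5 higher on day 3) had means of 5.86 to 7.7, 10.2 to 11.42 and 5.6 to 5.83, and day 3 resected replicate 2 was the highest of these. Mock replicate 1 (7.66) was not the highest of the mock arrays, as replicate 2 was at 7.7. Granular duct markers (4 of 5 lower on day 3) had means of 16.82 to 17.79, 14.68 to 15.84 and 16.29 to 17.74. Acinar markers (2 of 7 lower on day 3) had means of 17.13 to 17.48, 16.72 to 17.44 and 17.46 to 18.09, with Pip, Prol1 and Car6 at or next to the array maximum throughout. This mean follows Bpifa2, which ranged from 12.4 to 17.88 within the day 3 resected group and from 14.27 to 19.93 within the day 14 group, whereas Bhlha15 and Slc12a2 fell on day 3 and rose again by day 14. Aqp5, the remaining acinar marker, did not fall, with means of 14.28 log2 in mock, 14.55 in day 3 resected and 14.44 in day 14 resected glands. Its day 3 difference from mock was 0.27 ± 0.34 (limma adjusted p = 0.755). Bpifa2, Bhlha15, Slc12a2 and Aqp5 were named after their values were seen. Adipocyte markers, of which 0 of 7 passed in any comparison, had means of 5.13 to 5.95, 5.08 to 6.12 and 5.01 to 5.75, with overlap between all groups. The part of macrophages, dividing cells and duct cells in the members' differences was not tested.

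Genes of the circadian clock set the day 14 arrays apart from all arrays sampled on day 3. Dbp, a clock-driven transcription factor, was at 15.28 to 16.39 log2 in mock, 15.05 to 15.76 in day 3 resected and 7.29 to 8.8 in day 14 resected glands. Arntl, a core clock activator, was at 6.85 to 7.39, 6.72 to 7.73 and 10.73 to 12.39. Both were chosen for this comparison after their values were seen. The time of day of sampling is not given in the sources used here, and its part in the day 14 values of the sterol branch was not tested.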

How the data were processed

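RNA from 9 glands was hybridised to Clariom S arrays. The values the authors deposited are log2 expression levels, made with Transcriptome Analysis Console 4.0 and RMA (background subtraction, normalisation between arrays, summary of probes), per the submitters' processing notes. The genome build of the annotation is not given in the sources used here. The table holds 28846 rows; 6640 control rows were left out, 22206 transcript clusters were tested, and 19572 have a gene symbol. For a symbol with several transcript clusters the one with the highest mean was used.

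The test was limma 3.58.1 under R 4.3.3 on all 9 arrays, with a mean per group and empirical Bayes variances (6 residual and 6.63 prior degrees of freedom). P-values are two-sided, with Benjamini-Hochberg adjustment over all transcript clusters of a comparison, with a threshold of 0.05. The fit was tested on simulated data. Of added differences of 1 log2 it recovered 30% for day 3 against mock, 22% for day 14 against mock and 24% for day 14 against day 3. Of differences of 2 log2 it recovered 86%, 92% and 88%. Many differences near 1 log2 would therefore not pass. The simulated differences were put on transcript clusters drawn at random, 50 per size, with independent noise. Recovery was not worked out for the members, some of which spread widely, such as Insig1 (SE 0.84). The number of arrays limits the precision, and the table has no detection calls. Replicates are biological per the series' design text.

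Members and lists were chosen with earlier results of these data known. Values on all arrays are given for members past the threshold in any comparison and for several of a fixed panel of regulators and key enzymes (Hmgcs1, Fdft1, Sqle, Insig1, Srebf2, Scap, Acly, Acaca, Acacb, Fasn, Me1, Scd1, Fads2, Elovl6), the rest by differences, ranges and counts. Of other pathway lists, at most 3 genes past the threshold with the smallest p were named per comparison. Mylip was an exception, named as the only gene of its list that rose from day 3 to day 14. Alternatives were quantile normalisation, median centring, leaving out the dimmest 30%, a replicate block, fits of only the groups compared, array weights, robust variances, means over transcript clusters, a 2-fold minimum and leaving out each array.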

Additional observations from a re-analysis of the deposited data

Results flagged for a closer look

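The difference from mock was not the same on day 3 and day 14 after resection for 10 members, by the limma test of day 14 against day 3 resected, in which the mock arrays cancel. The day 14 minus day 3 value was -2.97 log2 for Idi1, -2.93 for Fdps, -2.45 for Fdft1, -2.49 for Sqle, -2.38 for Cyp51 and -2.39 for Msmo1 in the sterol branch. For the regulators it was -3.34 for Insig1 and -1.01 for Srebf2, and for the elongase Elovl5 it was -1.22. Fads2b differed the other way, by 3.54. Idi1, Fdps and Fads2b passed without any 1 of the 9 arrays, and the other 7 each lost the call without at least 1 array. The day 14 glands also differed from both other groups in the clock genes Dbp and Arntl, whose part in these differences was not tested.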

How the results depend on the processing

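For day 14 against day 3 after resection the count of members past the threshold was 10, and 10 to 14 under the other settings that kept all arrays. With the replicate number as a block it was 11, with Pmvk added, and the counts of the other comparisons were 2 and 0 as without it. Deviations of arrays with the same number correlated at -0.09 to 0.05, which gave no sign that the numbers pair the arrays. With 3 arrays per group a small shared effect could be missed. With only the groups compared, 1 member (Idi1, 1 in the sterol branch) passed for day 14 against mock. With array weights Acacb turned to -0.04 log2 for day 14 against day 3. Insig1 lost its call with robust variances.

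Leaving out each array in turn gave 3 to 11 members for day 14 against day 3 (2 to 8 in the sterol branch, 1 to 3 in the fatty acid branch). It gave 1 to 4 members for day 3 against mock (0 to 2 in the sterol branch, 1 to 4 in the fatty acid branch; median of members 0.03 to 0.69 log2) and 0 to 1 for day 14 against mock (0 to 1 in each branch). Of the 34 members, 12 changed sign in at least 1 of these fits on day 3 against mock, 6 on day 14 against mock and 5 on day 14 against day 3. In the comparison where the sign changed, 0 of these had passed the threshold in limma. Some of them, such as Idi1 and Elovl5, passed in another comparison. On day 3 against mock they included Idi1 (-0.01 to 1.08), Fdft1 (-0.19 to 1.24), Msmo1 (-0.05 to 1.18), Scap (-0.47 to 0.1), Acacb (-0.27 to 0.09), Fasn (-0.25 to 0.66) and Elovl6 (-0.59 to 0.06), beside Sc5d, Dhcr7, Lss, Hsd17b7 and Fads3. On day 14 against mock they included Elovl5 (-0.21 to 0.23), Acaca (-0.07 to 0.21), Acacb (-0.32 to 0.11) and Me1 (-0.64 to 0.12), beside Fads6 and Elovl1. On day 14 against day 3 they included Acacb (-0.23 to 0.2), Scd1 (-0.39 to 0.44) and Fads2 (-0.03 to 0.25), beside Mvk and Fads1. Apart from the smaller number of arrays, the cause was not tested. Of the alternatives for named genes, 949 kept direction and side of the threshold, 30 lost the call, 13 gained it and 28 changed sign. Signal near that of the negative controls limits the size of differences at the low end.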
